A study of Saccharomyces cerevisiae with 4 samples.

Results

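Mitochondrial ribosomal proteins are made from nuclear genes, imported into mitochondria and assembled with ribosomal RNA of the mitochondrial genome. The members described here are the genes whose standard name is MRPL, MRPS or RSM followed by a number, taken by that name from the table of log ratios. They comprised 53 of 6172 genes, of which 33 were MRPL genes of the large subunit, and 9 MRPS and 11 RSM genes belonged to the small subunit. The reference holds 54 such genes, and MRPL15 was not analysed here. All 53 were matched by their systematic name, and none was spread over several features.

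The 4 samples were 2-colour arrays of Saccharomyces cerevisiae. On each, RNA of an rlm1 mutant culture given zymolyase at 5 units per ml was set against RNA of the untreated part of that culture. Both parts grew in rich YEPD medium at 24 °C, and cells were taken at 3 hours. Zymolyase is a mix of enzymes that breaks down wall glucan. RLM1 encodes a transcription factor that the wall integrity kinases activate, and both channels lacked it, so no wild-type cells enter these ratios. The sources used here give neither the strain background nor whether the mutant was 1 clone. There were 2 cultures with 2 arrays each, 1 per dye orientation. On arrays 1 and 3 the zymolyase RNA was the one in Cy3, while arrays 2 and 4 had it in Cy5.

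The mitochondrial ribosome translates the few messages of the mitochondrial genome, most of which encode subunits of the respiratory chain and the ATP synthase. It descends from a bacterial ribosome: many of its proteins have bacterial homologues, here named with u or b in the universal nomenclature (uL11, bL32), and others, named with m, have none. In yeast, messages of many of its proteins are bound by the RNA-binding protein Puf3, and loss of the ribosome also leads to loss of the mitochondrial genome. The ratios measure messages of the nuclear genes, not ribosomes.

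Values are log2 ratios of zymolyase over untreated. Neither the log base nor the numerator dye is stated in the sources used here. Base 2 is the usual one, and Cy3 was taken as the numerator and Cy5 as the denominator. This puts 2 genes known to respond to stress on the zymolyase side of every array. After the turning given below, HSP12, a membrane protein of many stresses, lay between 2.17 and 3.22, and GPD1, of glycerol synthesis, between 1.38 and 2.37. The direction is likely rather than settled. The opposite reading turns every sign. Arrays 2 and 4 were multiplied by -1 for the dye exchange. Without this step HSP12 and GPD1 would lie above 0 on arrays 1 and 3 and below 0 on arrays 2 and 4. The 4 arrays held values for 4815 to 5659 features. Array 2 had the most blanks (1394) and the widest ratios (SD 0.63; the others had 0.32 to 0.35). The loss of RLM1 could not be checked, since its feature was blank throughout. Of the members, 51 of 53 (96.2%) had a value on all 4 arrays, against 4730 of 6172 genes (76.6%). Those 51 were tested, 32 of the large and 19 of the small subunit. RSM19 had 3 values and MRPL33 had none.

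No mitochondrial ribosomal protein gene passed the test with zymolyase. The question was whether messages of the organelle's ribosome change when the wall is digested in cells without RLM1. In limma on culture means, 0 of 51 members were higher and 0 were lower at an adjusted p under 0.05. Of all 4730 genes tested, 2.35% were called higher and 0.803% lower. At an unadjusted p under 0.05, 4 members were lower and 0 higher, against 6.43% lower and 6.07% higher over all genes tested. The 4 were MRPL19, MRPS28, MRPL22 and MRPL32. With a dye term fitted to the 4 arrays, again 0 members passed, against 1.44% of all genes called higher and 0.19% lower. At an unadjusted p under 0.05 that fit held 3 members (MRPL19, MRPL22 and MRPL32), all lower, against 5.75% of all genes lower, and 0 higher, against 6.3%. The shares of lower members lie near the background. The test gave every gene the same standard error of 0.162, so that a 95% interval spans the mean plus or minus 0.318, and the smallest mean called in any gene was 0.512 in size. Smaller shifts were thus not detectable in single genes with 2 cultures.

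As a list the members lay slightly below the rest of the genes. The median of their mean ratios was -0.099, against -0.012 over all genes tested. The middle of the list ran from -0.23 to -0.024 (quartiles), against -0.14 to 0.11 over all genes tested. A mean below 0 was found for 40 of 51 members (78.4%), against 52.6% of all genes tested. Of the members, 7 were below 0 on all 4 arrays (13.7%), against 8.79% of all genes tested, and 0 were above 0 on all 4, against 7.99%. The 7 were MRPS28, MRPL22, RSM25, MRPL27, MRPL13, RSM27 and MRPL31, of which MRPL27 (mean -0.26 ± 0.18) and RSM27 (-0.16 ± 0.12), both for mitochondria-specific proteins, are named for this sign alone. These are descriptions of the list with no test. In ratios from bulk cultures, fewer cells of a type and less RNA per cell cannot be told apart.

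The low values came from arrays 2, 3 and 4. On array 1 the median of the members was -0.0023, against -0.026 over all genes tested. On array 2 it was -0.060, against 0.068 over all genes tested. The medians on array 3 were -0.17 for the members and -0.025 for all genes, and on array 4 they were -0.098 and -0.017. Thus the members lay lowest relative to all genes on arrays 3, 2 and 4, and level with them or slightly above on array 1. On array 3, 43 members were below 0 (84.3%), against 53.7% of all genes tested. On array 4, 37 were below 0 (72.5%, against 52.8%), and on array 2, 30 (58.8%, against 46.5%). On array 1, 26 were below 0 (51%, against 54.3%). Array 2 spread the members most, from -1.21 to 0.77, with 16 of them below -0.5 and 2 above 0.5. It also spread all genes tested most, with an SD of 0.62, against 0.55 for the members. The shares of all genes below -0.5 and above 0.5 are not given here. Array 3 held the members closest, with an SD of 0.19, against 0.31 over all genes tested.

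**Figure D1:**
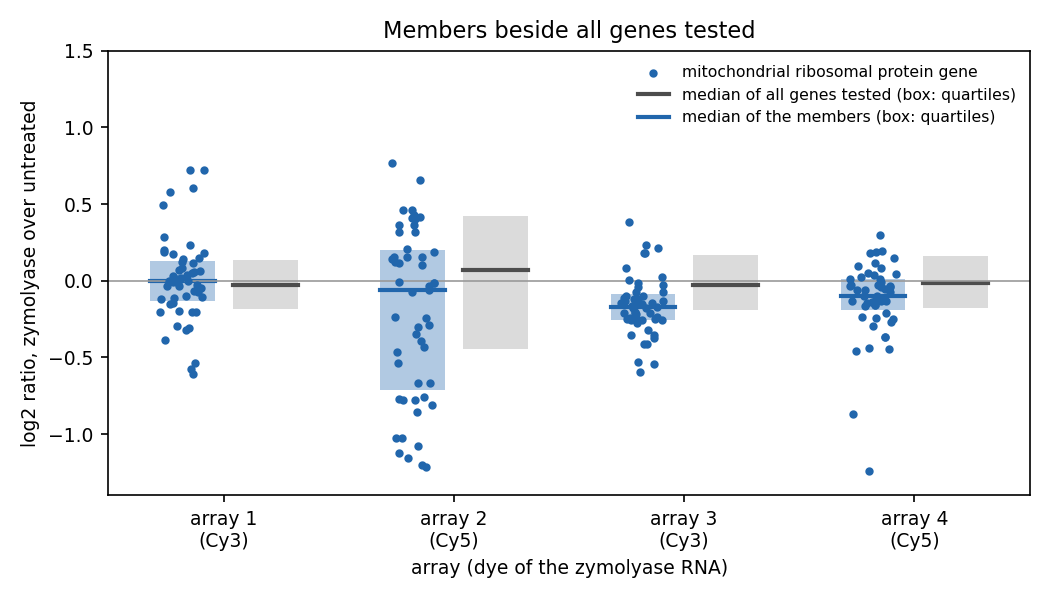
Log2 ratio of zymolyase over untreated (y axis) on each of the 4 arrays (x axis, with the dye of the zymolyase RNA). Blue points are the 51 members, lines are medians and boxes the quartiles of the members (blue) and of all 4730 genes tested (grey); the members' median is -0.17 on array 3 and -0.0023 on array 1.

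In the large subunit, 24 of 32 MRPL genes (75%) had a mean below 0, against 52.6% of all genes tested, with a median of -0.095. MRPL19 encodes uL11, a protein of the stalk base where translation factors bind. It stood at 0.49 on array 1, -1.02 on array 2, -0.25 on array 3 and -1.24 on array 4. Both arrays with zymolyase RNA in Cy5 were far below 0, and those with Cy3 lay on either side of it. Its mean of -0.50 ± 0.79 (SD, n = 4 arrays of 2 cultures) was the lowest of the members, 41st from the bottom among all genes tested, and just missed the threshold (limma adjusted p = 0.057; 0.17 with a dye term). Leaving out 1 array moved the mean to between -0.84 (without array 1) and -0.26 (without array 4). The adjusted p values were 0.25 to 0.99 in limma fits in which a culture left with 1 array counts as much as the other. They therefore do not belong to these means, which weigh the arrays equally. In the test with arrays 1 and 2 as one culture alone it was the 1 member that passed (adjusted p = 0.032), against 1.18% of all genes called lower.

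MRPL22 encodes uL22, which lines the exit tunnel for the growing chain. It had -0.21 on array 1, -0.78 on array 2, -0.14 on array 3 and -0.27 on array 4, below 0 on every array and lowest on array 2. The mean was -0.35 ± 0.29 (SD, n = 4 arrays; limma adjusted p = 0.33), and -0.21 without array 2. MRPL32 encodes bL32, which the m-AAA protease of the inner membrane trims after import before it joins the ribosome. Its values were -0.32, -0.67, -0.41 and 0.047 on arrays 1 to 4, so that array 4 alone lay above 0, with a mean of -0.34 ± 0.30 (limma adjusted p = 0.35).

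The next of the large subunit had their lowest value on array 2. MRPL24, for bL28, had 0.29, -1.02, 0.0050 and -0.46 on arrays 1 to 4, with a mean of -0.30 ± 0.57. MRPL25, for the mitochondria-specific mL59, had 0.073, -0.78, -0.54 and 0.12, with a mean of -0.28 ± 0.45. MRPL9 encodes uL3, a protein near the peptidyl transferase centre, and had 0.12, -1.13, 0.024 and -0.10. In each of these 3 genes array 2 was the lowest. The mean of the other 3 arrays was -0.056 for MRPL24, -0.12 for MRPL25 and 0.013 for MRPL9, against -0.30, -0.28 and -0.27 with array 2. Without array 2, only array 4 has zymolyase RNA in Cy5, so the dye orientations do not balance. MRPL25 was also low on array 3, and its mean was -0.20 without array 3. MRPL11 encodes uL10, which anchors the stalk. It differed in being low on both Cy3 arrays, with -0.38 on array 1 and -0.25 on array 3, beside -0.54 on array 2 and 0.097 on array 4. The mean was -0.27 ± 0.27 (adjusted p = 0.53).

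The highest means were small. MRPL35, for the mitochondria-specific mL38, led with 0.11 ± 0.24, from values of 0.084, 0.43, 0.083 and -0.16 on arrays 1 to 4 (limma adjusted p = 0.91). MRPL3, for mL44, a protein with a ribonuclease III fold, followed at 0.092 ± 0.25. MRPL39 (bL33), MRPL38 (uL14), MRPL1 (uL1, of the mobile stalk beside the exit site for transfer RNA), MRPL23 (uL13), MRPL6 (uL6) and MRPL16 (uL16, near the aminoacyl site) had means between 0.033 and 0.059. In 7 of these 8 genes the mean turned negative without array 2, where each was between 0.32 and 0.65. MRPL35 was the exception, at 0.0027 without array 2. The highest mean among the members thus lay well inside the interval of 0.318 on either side of 0.

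In the small subunit, 16 of 19 genes had a mean below 0, with a median of -0.10, close to the -0.095 of the large subunit. By the mean of the 4 arrays, all 9 MRPS genes and 7 of 10 RSM genes (70%) were below 0, against 52.6% of all genes tested. Among the MRPS genes only MRPS28 was below 0 on every array. MRPS28 encodes uS15, which binds ribosomal RNA early in the assembly of the bacterial subunit. It was -0.15, -1.20, -0.016 and -0.039 on arrays 1 to 4, so array 2 set its mean of -0.35 ± 0.57 (limma adjusted p = 0.32), which was -0.069 without that array. RSM24 (mS35) had the same shape, with 0.12, -1.16, -0.040 and -0.042, a mean of -0.28 ± 0.59, and 0.014 without array 2. RSM25 (mS23) was below 0 on every array, with -0.037, -0.67, -0.27 and -0.13 and a mean of -0.28 ± 0.28 (adjusted p = 0.51), or -0.15 without array 2.

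At the upper end of the small subunit, RSM22 had a mean of 0.077 ± 0.14. It encodes a protein related to methyltransferases, and had 0.15, 0.12, 0.18 and -0.14 on arrays 1 to 4, so only array 4 was below 0. RSM18, for bS18, had a mean of 0.023 ± 0.69 that hid a wide spread. With zymolyase RNA in Cy3 it was 0.72 on array 1 and 0.38 on array 3. In Cy5 it was -0.85 on array 2 and -0.16 on array 4.

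**Figure D2:**
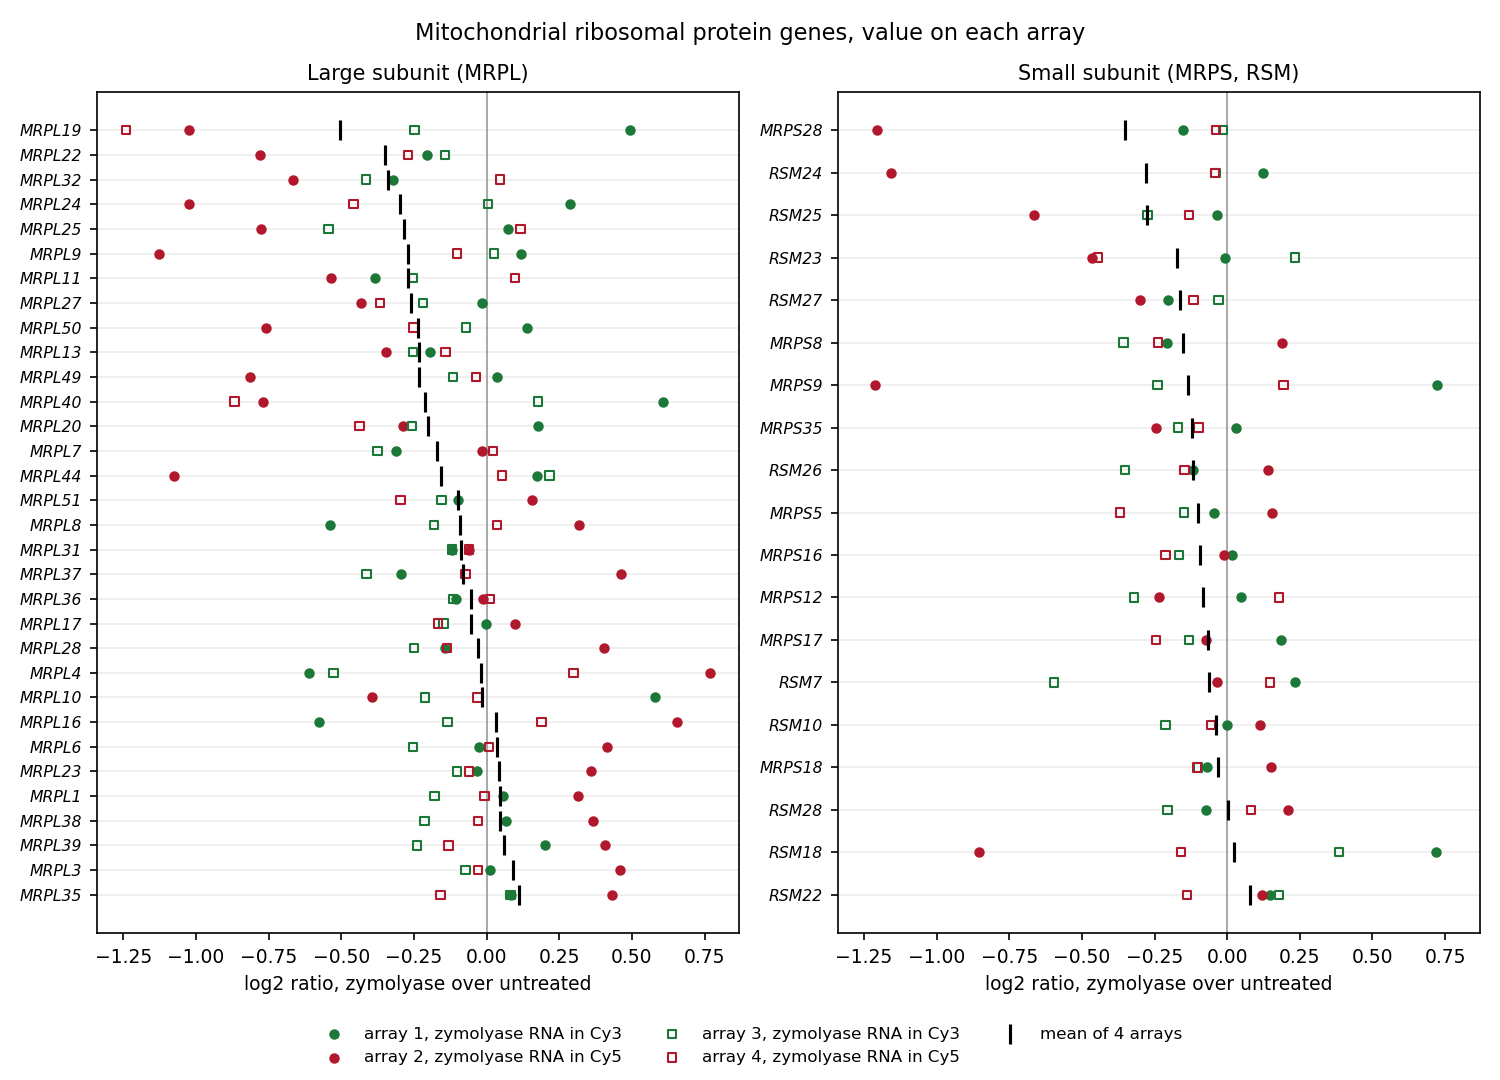
Log2 ratio of zymolyase over untreated (x axis) of each of the 51 members with 4 values (rows), for the large (left) and small subunit (right). Green marks are arrays with zymolyase RNA in Cy3, red marks those with it in Cy5, and black bars the mean of the 4 arrays; MRPL19 has the lowest mean at -0.50 and MRPL35 the highest at 0.11.

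Of the 4 members with the steadiest values, MRPL31, MRPL36 and MRPS16 were close to 0 and MRPL13 was lower. MRPL31, for mL60, had the smallest SD of the members: -0.12, -0.060, -0.12 and -0.061 on arrays 1 to 4, with a mean of -0.090 ± 0.034. MRPL36 encodes bL31, and had -0.11, -0.012, -0.12 and 0.012, with a mean of -0.056 ± 0.065. MRPL13 (mL50) had -0.20, -0.35, -0.25 and -0.14 and a mean of -0.23 ± 0.087. It was below 0 on every array by more than its spread, yet the test, which uses 1 standard error for all genes, gave an adjusted p of 0.63. MRPS16 (bS16) stood at -0.093 ± 0.11. Over the members the SD across arrays had a median of 0.27, against 0.30 over all genes tested.

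Several members with wide values divided by dye. MRPS9 encodes uS9, whose tail reaches the transfer RNA in bacterial ribosomes. It ranged from 0.72 on array 1 to -1.21 on array 2, with -0.24 on array 3 and 0.19 on array 4 (mean -0.13 ± 0.82, or 0.23 without array 2), so that its dye orientations overlapped. MRPL40 encodes uL24 and had 0.61 on array 1 and 0.18 on array 3, where zymolyase RNA was in Cy3, but -0.77 on array 2 and -0.87 on array 4, where it was in Cy5. MRPL4, for uL29 at the tunnel exit, ran the other way, with -0.61 and -0.53 in Cy3 and 0.77 and 0.30 in Cy5. MRPL4 was chosen for naming after its values were known. In MRPL40, MRPL4 and RSM18 the values of the dye orientations did not overlap, and they cancelled to means of -0.21, -0.018 and 0.023. Other members, among them MRPL19 and MRPL16, showed no overlap either. The share of all genes tested without overlap was not counted, so this is no trait of the members.

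**Figure D3:**
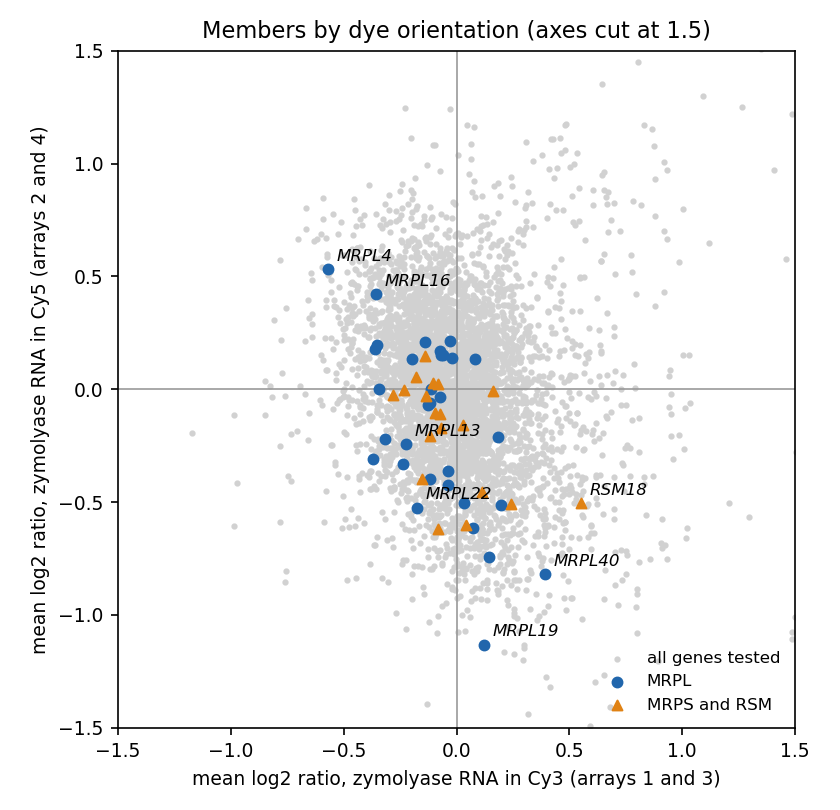
Mean log2 ratio with zymolyase RNA in Cy3 (x axis, arrays 1 and 3) against that with it in Cy5 (y axis, arrays 2 and 4), for MRPL genes (blue circles), MRPS and RSM genes (orange triangles) and all genes tested (grey; 20 genes lie beyond the axes). The members run from upper left to lower right, with MRPL4 at -0.57 and 0.53 and MRPL40 at 0.39 and -0.82.

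Differences among members went with the dye orientation. Over the 51 members, arrays of the same orientation correlated at r = 0.38 (arrays 1 and 3) and 0.28 (arrays 2 and 4). Arrays of opposite orientation correlated between -0.49 (arrays 1 and 2) and -0.30 (arrays 2 and 3). Over all genes tested the opposite pairs lay between -0.13 and 0.051, and the same pairs at 0.60 and 0.44. Genes are not independent replicates and share an array's dye and spot effects, and these correlations are descriptions. The orientation contrast is the mean of the Cy3 arrays minus that of the Cy5 arrays, divided by 2. Its SD over members was 0.24, against 0.14 for their mean ratios. Over all genes tested these SDs were 0.26 and 0.24. It was larger in size than the mean ratio in 30 of 51 members (58.8%), close to the 58.9% of all genes tested. As a list the contrast was near 0: its median was -0.021, with 25 members above 0, and the members' median was -0.084 over the Cy3 arrays and -0.11 over the Cy5 arrays. The contrast thus spread more over the members than their mean ratio did, while the share of members in which it was larger matched the background. The list's median was below 0 in both orientations. Had the deposited ratios already been turned for the dye exchange, the contrast would be the treatment effect. HSP12 and GPD1 would then lie above 0 on arrays 1 and 3 and below 0 on arrays 2 and 4. Under that reading 3 members were called higher (RSM18, MRPL19 and MRPL40), against 4.55% of all genes, and MRPL4 lower, against 2.14%.

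Grouped by descent, the 31 members with a bacterial homologue had a median of -0.091 and the 19 without one of -0.12. RSM22, with the highest mean of the small subunit (0.077), was placed in neither group. A mean below 0 was found in 24 of the first group (77.4%) and 16 of the second (84.2%), against 52.6% of all genes tested. The first group was spread more by dye, with an SD of the orientation contrast of 0.28, against 0.17 in the mitochondria-specific group. Over all genes tested it was 0.26. No test of this difference was made. One pair of members are neighbours on chromosome XIV, MRPS12 and RSM19. MRPS12, for uS12 of the decoding centre, had 0.047, -0.24, -0.32 and 0.18 on arrays 1 to 4, with a mean of -0.083 ± 0.23. RSM19 (uS19) had 0.50, -0.47 and 0.39 on arrays 1 to 3 and a blank on array 4, and was not in the test. The neighbours thus shared the sign on arrays 1 and 2 and differed on array 3.

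Other genes of mitochondrial translation gave no call in the same test. Of 25 mitoribosomal proteins with other names, such as RML2 (uL2) and MRP13, 23 were tested and 0 passed in limma (0 also at an unadjusted p under 0.05). Of these, 19 (82.6%) had a mean below 0, against 52.6% of all genes tested. Their median was -0.058 (-0.077 to -0.018 with 1 array left out), against -0.099 for the members. RML2 had the lowest mean at -0.26 ± 0.59, with -1.13 on array 2, and MRP13 the highest at 0.067 ± 0.29. Of 6 translation factors tested, 0 passed, between AIM23, an initiation factor, at -0.17 ± 0.12 and FMT1, which formylates the initiator transfer RNA, at 0.19 ± 0.28. The factors had a median of 0.080, which was -0.017 without array 2.

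The transfer RNA synthetases (9 tested, median 0.014, or -0.072 without array 2 and 0.10 without array 1) ran between DIA4 at -0.14 ± 0.21 and MSD1 at 0.12 ± 0.30, and 0 passed. The assembly factors (9 tested, median -0.0017, and -0.063 to 0.077 with 1 array left out) ran between MAM33 at -0.33 ± 0.58 and MTG2 at 0.15 ± 0.51, and 0 passed. The 11 translational activators and RNA helpers had a median of -0.065, or 0.067 without array 1. Among them the RNA helicase gene MSS116 had the lowest mean, -0.46 ± 0.91 (adjusted p = 0.11), from 0.11, -1.61, 0.40 and -0.73 on arrays 1 to 4. The highest was PET122, an activator of COX3 translation, at 0.23 ± 0.37, and 0 passed. At an unadjusted p under 0.05, 1 gene each of the assembly and activator lists was found, and 0 of the factors, synthetases, insertion or transcription genes. Of 5 genes for insertion into the inner membrane and ribosome tethering, 0 passed (median -0.028, and -0.092 to 0.054 with 1 array left out), with YLH47 at -0.12 ± 0.99 and MDM38 at 0.16 ± 0.40. The 3 transcription genes (median 0.11, or -0.021 without array 1 and 0.027 without array 4) did not pass either: MTF1 had -0.0077 ± 0.48, and ABF2, a packaging protein of mitochondrial DNA, 0.13 ± 0.22.

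**Figure D4:**
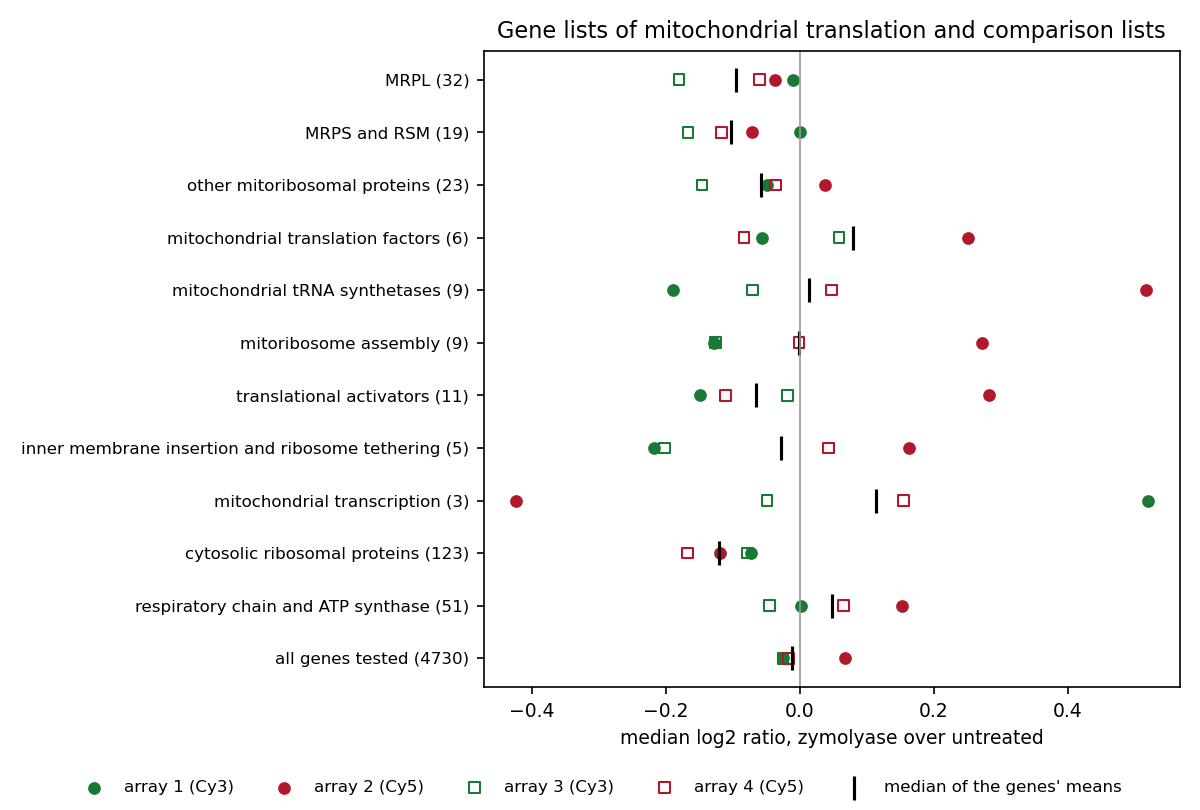
Median log2 ratio of zymolyase over untreated (x axis) of each gene list (rows, number of genes with 4 values in parentheses) on arrays with zymolyase RNA in Cy3 (green) and Cy5 (red); black bars are the medians of the genes' 4-array means. The bars stand at -0.095 and -0.10 for the mitochondrial ribosomal subunits, -0.12 for cytosolic ribosomal proteins and 0.048 for the respiratory chain and ATP synthase.

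In their median the members lay near the cytosolic ribosomal proteins and below the respiratory chain, with arrays 2 and 4 turned. The 123 cytosolic ribosomal protein genes tested had a median of -0.12, with medians of -0.073, -0.12, -0.078 and -0.17 on arrays 1 to 4. The mitochondrial ones had -0.0023, -0.060, -0.17 and -0.098 on the same arrays. Of the cytosolic genes, 42 of 123 were below 0 on all 4 arrays, against 7 of 51 mitochondrial ones and 8.79% of all genes tested. Of the cytosolic genes 0 passed. At an unadjusted p under 0.05 in limma there were 16 of 123 in either direction. Over all genes tested, 6.07% were higher and 6.43% lower by that rule. The 51 genes of the respiratory chain and ATP synthase, whose mitochondrially made subunits this ribosome produces, had a median of 0.048, with 0.0017, 0.15, -0.045 and 0.065 on arrays 1 to 4. Of these, 20 had a mean below 0, against 40 of 51 members. Without array 2 the respiratory median was 0.015, against -0.089 for the members. If the ratios were already turned, the medians were -0.021 for the members, 0.064 for the cytosolic and -0.061 for the respiratory genes, so that their order changed. These lists share the arrays, and the differences between them were not tested. In the respiratory list 1 gene passed, CYC1 for cytochrome c, which was lower. It had -0.20, -0.98, -0.52 and -0.40 on arrays 1 to 4, all below 0, with a mean of -0.52 ± 0.33 (limma adjusted p = 0.043). It did not pass with a dye term (adjusted p = 0.13) or with any 1 array left out (adjusted p = 0.34 to 0.86).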

How the data were processed

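The authors' deposited values are 1 log ratio of the 2 channels per feature and array, taken here as log2 ratios. Per the labels' protocols, cDNA carried Cy5 in one channel and Cy3 in the other. The sources used here name no scanner, background correction, normalization or rule for blanks, and no intensities were analysed, so the number of arrays limits the precision. Of 6209 features, 2 controls were left out and 5714 matched an R64 gene, used for names and neighbours only. Features of 1 gene were averaged.

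Arrays 2 and 4 were multiplied by -1. The labels do not tie arrays to cultures, so the 2 possible pairings (1 with 2 and 3 with 4; 1 with 4 and 2 with 3) were both fitted with limma 3.58.1 in R 4.3.3. Culture means were tested against 0 over 4730 genes, with Benjamini-Hochberg adjustment, and a call needed an adjusted p under 0.05 in both. The larger p is given. With 1 array left out, the culture left with 1 array counts as much as the other in the fit. The means given for that case weigh the remaining arrays equally, so their p values belong to a different average. The prior was infinite in both fits. The method was run on simulated data that held no effect shared within a culture and no spread particular to a gene. The simulation thus checks neither the pairing nor the use of 1 standard error for all genes. Members, lists and rules were chosen with earlier results of these data known. Genes named are the 10 highest, 10 lowest, 4 widest and 4 steadiest members by mean and SD, and the extremes of each list. Promoter motifs and sequences were not analysed here.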

Additional observations from a re-analysis of the deposited data

Results flagged for a closer look

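Of 63 sets of 4 array values examined (51 members and 12 list medians), 6 held 1 array far from the other 3, past the 95% critical value of Dixon's test. Chance gives about 1 in 20 where the 4 values have equal spread. Array 2 was wider than the others, so that rate does not hold here. The share of all genes tested past the same value was not counted, so the 6 cannot be called unusual. All 6 were members, and the array that stood apart was array 2 in each. It was the lowest for MRPS28 (-1.20, against -0.15 to -0.016 on the others), RSM24 (-1.16, against -0.042 to 0.12) and MRPL44, for mL53 (-1.07, against 0.052 to 0.22). It was the highest for MRPS18, for uS11 (0.15, against -0.10 to -0.069), MRPL23 (0.36, against -0.10 to -0.034) and MRPL3 (0.46, against -0.073 to 0.011). MRPL44 and MRPS18 are named for this gap alone. Array 2 also had the widest ratios over all features. The part of that width in these values was not tested.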

How the results depend on the processing

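Depth and signal over background are unknown, and 2 cultures cannot show small shifts in single genes. No paired analysis was possible because the samples form 1 group, in which each array already pairs treated and untreated RNA of a culture. Higher and lower member calls stayed at 0 and 0 with median centring, scaling to 1 median absolute deviation, genes on at least 3 arrays, the dye term, the pairing of 1 with 4, and each array left out. Over all genes the 149 calls became 77 with the dye term, 316 if already turned and 9 to 35 with 1 array left out, where fewer arrays enter the fit. The pairing of 1 with 2 gave 1 lower (MRPL19). The reading as already turned would set HSP12 and GPD1 on opposite sides of 0 in Cy3 and Cy5 arrays. Taking the ratios as already turned gave 3 higher (RSM18, MRPL19 and MRPL40) and 1 lower (MRPL4), 4 members above 0 on all arrays and 26 with a mean below 0, and moved the members' median to -0.021, that of the MRPL genes to -0.029 and that of the MRPS and RSM genes to 0.045. With 1 array left out, the members' median lay between -0.14 and -0.080, that of MRPL genes between -0.11 and -0.080 and that of MRPS and RSM genes between -0.15 and -0.073. Then 35 to 43 members had a mean below 0 (68.6% to 84.3%), against 50.3% to 57% of all genes tested. Both shares were highest without array 2. On all 3 remaining arrays 8 to 16 members were below 0 (16 without array 1 and 16 without array 2) and 0 to 2 above. Having 1 sign on 3 arrays is easier than on 4, and its share over all genes is not given here. With 1 array left out the dye orientations do not balance. The median orientation contrast lay between -0.028 and 0.030. Counts of means below 0, and the alternatives for the contrast and the other lists, were added after seeing the data.

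For the 26 named members, centring, scaling, at least 3 arrays and the arrays left out gave 182 values, of which 163 kept their direction and 19 changed sign, with 0 past the test. The dye term and single pairings leave the means as they are, and 1 of their 78 tests passed (MRPL19). If already turned, outside these counts, 20 of the 26 had the other sign, among them MRPL19 (0.63, adjusted p = 0.0059) and MRPL40 (0.61, adjusted p = 0.0087). With scaling the sign changed for MRPL16 (-0.071), MRPL6 (-0.024), MRPL23 (-0.012), MRPL38 (-0.0042) and MRPS9 (0.060). With 1 array left out the means ran from -0.41 to 0.014 for RSM24, -0.40 to 0.013 for MRPL9, -0.21 to 0.31 for RSM18, -0.17 to 0.24 for MRPL16, -0.091 to 0.13 for MRPL6, -0.065 to 0.089 for MRPL23, -0.043 to 0.12 for MRPL1, -0.059 to 0.13 for MRPL38, -0.058 to 0.16 for MRPL39, -0.031 to 0.15 for MRPL3, -0.42 to 0.23 for MRPS9 and -0.49 to 0.0043 for MRPL40. The cause was not tested.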
